A study of Gallus gallus with 6 samples.

Results

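Neurotransmitter receptor genes were followed along the cochlear duct of the chicken embryo. They were chosen by name and not by value, as the genes whose symbols denote AMPA, kainate, delta and NMDA glutamate receptors, metabotropic glutamate receptors, GABA-A and GABA-B receptors, glycine receptors, nicotinic and muscarinic acetylcholine receptors, and serotonin, adrenergic and dopamine receptors. The rule found 71 of the 17684 genes in the table. Of these, 70 encode receptors or receptor subunits. The remaining one, GRID2IP, encodes an interacting protein and was caught by the shared start of its name. CHRNA10, whose symbol also matched, was left out by the rule. Counts of receptor genes below include GRID2IP.

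The cochlear ducts came from embryos at day 6.5 of incubation and were cut into a proximal, a middle and a distal piece, with 2 libraries per region and 6 in all. Each piece held part of the future basilar papilla, the hearing epithelium, and of the future tegmentum vasculosum, a secretory epithelium, and the distal piece also took in the future lagena, a vestibular end organ. Pieces of a region were pooled before RNA extraction, and the labels' protocols describe the replicates as separate biological ones. The labels name no strain, genotype or treatment, and how many ducts a pool held could not be learned from them. The libraries form a first and a second set with 1 library per region in each, and values below are given as first set, then second set.

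Ionotropic receptors are ion channels built from several subunits that open when a transmitter binds, whereas metabotropic receptors act through G proteins. In the ear, glutamate released by hair cells excites AMPA receptors on the fibres of the cochlear ganglion, and acetylcholine from efferent fibres acts on hair cells through the nicotinic subunits CHRNA9 and CHRNA10. Many of the same receptors appear on young neurons and on non-neural cells before synapses are made, so a transcript in a piece of duct does not place the receptor in a given cell type.

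The values are the authors' RPKM, reads scaled by gene length and by alignment total, so levels of different genes can be set side by side within a library. Summed over all genes, RPKM came to 757443 to 822531 in the first-set libraries and 480760 to 490156 in the second-set ones. Levels are thus less comparable between the sets. The first set was the shallower one, with 9262860 to 23537713 alignments per library against 56103107 to 73918748 in the second. One read per kilobase was thus worth between 0.0135 and 0.108 RPKM, and levels near the upper of these values rest on very few reads. The second set also gave higher receptor values. Of the 39 receptor genes abundant enough to test, 32 were higher in the second set in all 3 regions. The median second minus first difference of those 39 was 0.65, 0.64 and 0.54 on the log2(RPKM + 1) scale in the proximal, middle and distal regions, against 0.46, 0.24 and 0.22 over all 12559 genes tested. Region effects are therefore given within each set as well.

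Cell type markers differed between the pieces too. The summed RPKM of 15 neuron markers was 1290 and 1420 in the proximal libraries, 1320 and 1760 in the middle and 578 and 639 in the distal ones. Of these markers, 13 of 15 were lower distally than proximally in both sets and none was higher. Summed hair cell markers were 284 and 220, then 118 and 160, then 140 and 161 RPKM, and summed prosensory and supporting cell markers 379 and 517, then 545 and 733, then 562 and 843. Glia and neural crest markers summed to 588 and 511, then 530 and 418, then 277 and 340 RPKM, with S100B, GFAP and TFAP2B under 1 RPKM in all libraries. Of the 7 glia and neural crest markers tested, 4 were lower distally than proximally in both sets and 0 were higher. SOX10, PMP22 and CDH19 had distal minus proximal log2 changes of -0.06, -0.13 and 0.24. The median distal minus proximal log2 change was -0.90 for neuron, -1.71 for glia, -0.89 for hair cell and 1.05 for prosensory markers. It was -1.47 for red blood cell, -0.51 for leukocyte, 0.33 for cartilage, 0.05 for skeletal muscle and -0.14 for endothelium markers. In such mixed tissue fewer cells of a type and less RNA per cell cannot be told apart, and the part of these cell types in the receptor differences was not tested.

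Most receptor genes were weakly expressed. By mean RPKM over the 6 libraries, 3 genes reached 10 RPKM, 30 lay between 1 and 10, 23 between 0.1 and 1, and 15 below 0.1. In every library, 14 genes reached 1 RPKM, and 30 stayed below 1 RPKM in every library. No gene was listed at 0 in all libraries, while 24 were listed at 0 in at least 1. Testing required 1 RPKM or more in 2 or more of the 6 libraries, which 39 of the 71 had. HTR1E passed through the proximal libraries alone, where it is high, so its being lower elsewhere is partly set by that limit and counts of lower genes are also given without it. GABRA3 likewise needed its high proximal libraries, as elsewhere only the second-set middle library reached 1 RPKM (1.27 RPKM). GRIK2 and GABRA5 needed their distal libraries, and reached 1 RPKM elsewhere only in a middle one (1.12 and 1.05 RPKM). The limit thus partly sets the differences of these genes too, and all counts keep them. Further, 10 genes passed only through the second set (among them CHRM2, CHRM3, GABRA2, GABRB2, GRIA1, GRIA4, GRIN2B and HTR1D).

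**Figure D1:**
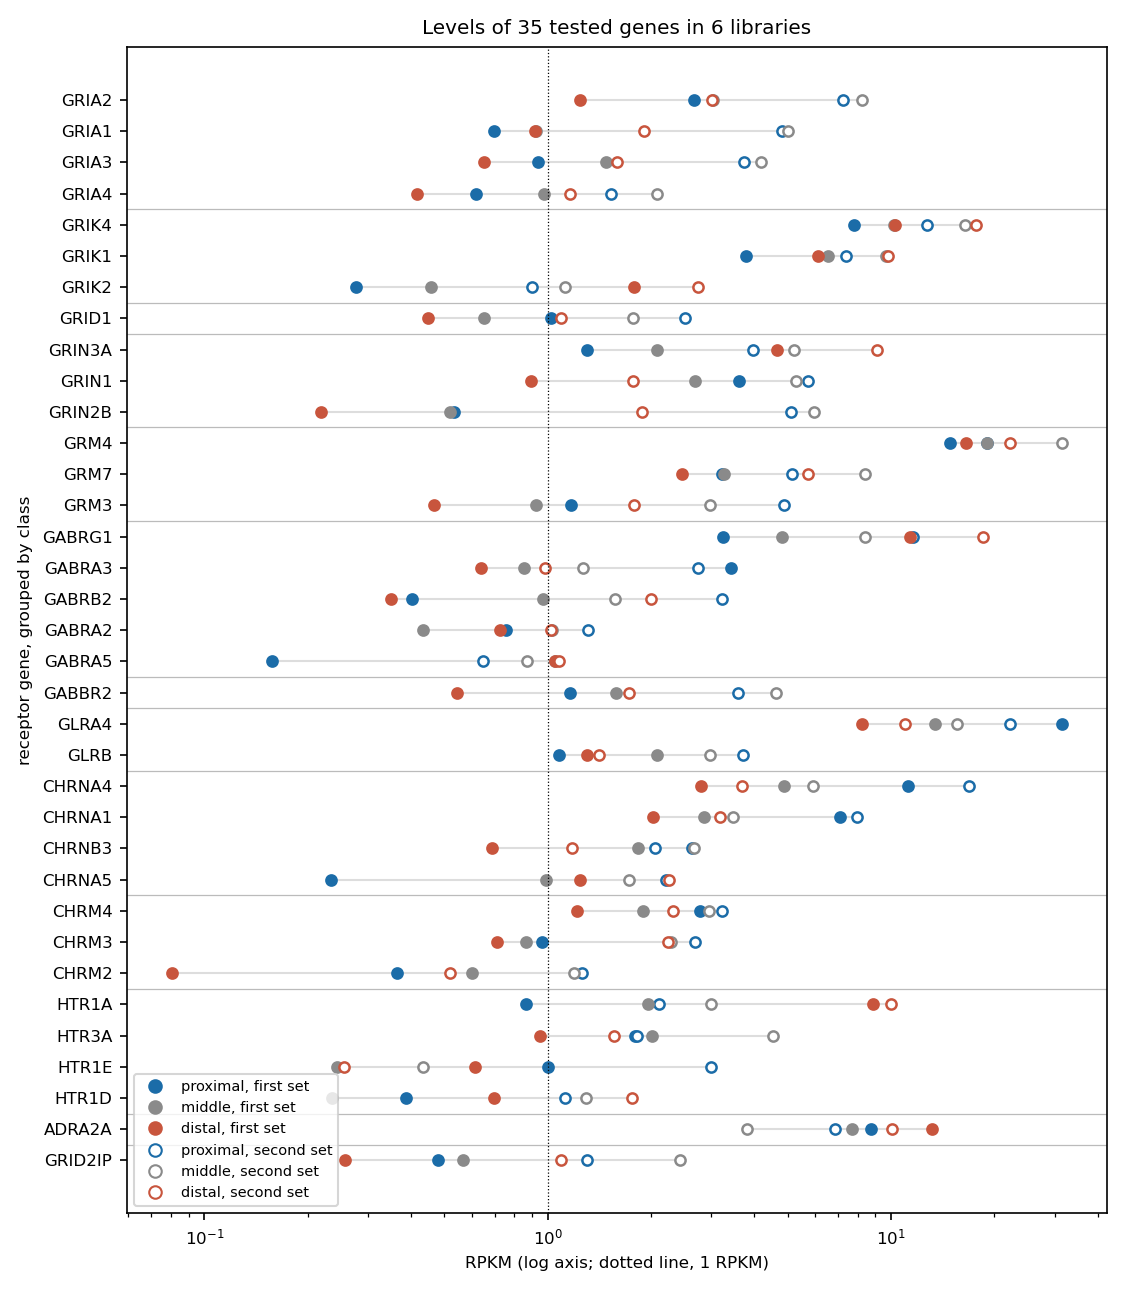
RPKM on a log axis of 35 of the tested genes, with 1 row per gene grouped by receptor class and 1 point per library (colour, region; filled, first set; open, second set). GRM4 lies highest over the 6 libraries with a mean of 20.5 RPKM, and most open points lie to the right of the filled points of the same region.

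Between the ends of the duct, receptor genes were more often lower than higher in the distal piece. Of the 39 tested, 23 were lower distally in both sets, or 59%, where 24.7% of all genes tested were (22 of 38, 57.9%, without HTR1E), and 12 were higher in both sets, or 30.8% beside a background of 33.3%. The median distal minus proximal log2 change was -0.27 for the receptor genes and 0.10 for all genes tested. The serotonin receptor gene HTR1A rose distally and the nicotinic subunit gene CHRNA4 fell, both in limma with the library set as a replicate block (adjusted p = 0.0442 and adjusted p = 0.0486). That model called 66 genes over the whole table, 0.526% of those tested, of which 0.247% were higher and 0.279% lower. Without the block no gene was called in limma (smallest adjusted p = 0.194), and 8 receptor genes, 20.5%, had an unadjusted p under 0.05 beside a background of 4.04%. With the block 17 of the 39, 43.6%, had an unadjusted p under 0.05, against 14.7% of all genes (16 of 38, 42.1%, without HTR1E). Asked for any difference among the 3 regions, limma called 0 receptor genes with or without the block, and 0 and 0.0717% of all genes without and with it.

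**Figure D2:**
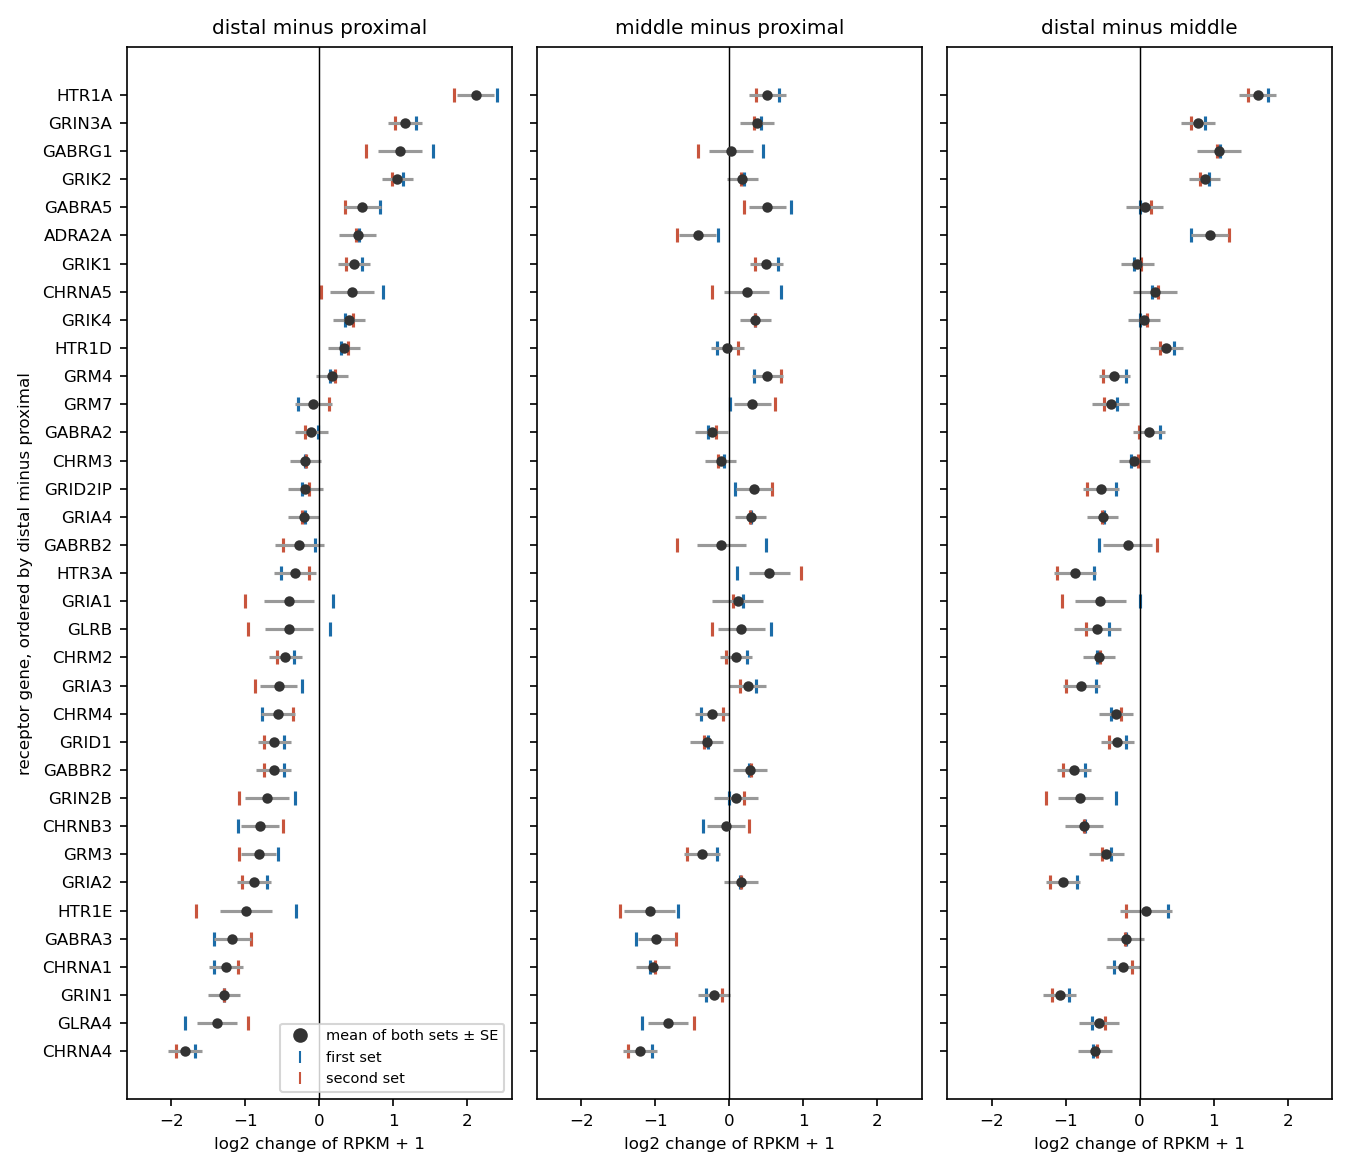
Difference of log2(RPKM + 1) for 35 of the tested genes, with a panel each for distal minus proximal, middle minus proximal and distal minus middle. Points are means of both sets with the standard error from the limma model that holds the library set as a replicate block. Vertical marks are the single sets (blue, first; red, second). The distal minus proximal values run from -1.81 for CHRNA4 to 2.11 for HTR1A, and in that panel 24 of the 35 genes drawn lie below 0.

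AMPA receptor subunits, which carry fast excitatory transmission, were all tested, and all were highest in the middle piece in both sets. GRIA1 and GRIA4 stayed below 1 RPKM in all first-set libraries. For GRIA1 the first-set order rested on 0.924 RPKM in the middle against 0.918 distally. GRIA2, the subunit that keeps the channel from passing calcium, was measured at 2.66 and 7.27 RPKM proximally, 3.03 and 8.26 in the middle and 1.24 and 3.01 distally. The middle value was the highest of the 3 regions in both sets, and the 2 distal libraries lay below the middle ones of their own sets. GRIA1 had 0.699 and 4.83, then 0.924 and 5.03, then 0.918 and 1.91 RPKM, GRIA3 ran from 0.652 to 4.19 and GRIA4 from 0.417 to 2.08. The gap between sets was thus as wide as the gap between regions for these genes. GRIA2 had a distal minus middle log2 change of -1.03 ± 0.23 (SE of the blocked model, 2 libraries per region; limma adjusted p = 0.287 with the block and 1 without). Summed over the class, the AMPA genes gave 4.91 and 17.4 RPKM proximally, 6.41 and 19.6 in the middle and 3.23 and 7.66 distally. GRIA2 made up between 38.4% and 54.1% of that sum in every library.

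The middle piece also held the highest value in both sets for GRM4, GRM7, GABBR2 and HTR3A, among others, so that 12 of the 39 tested genes, 30.8%, had this order, beside 6.6% of all genes tested. Some margins were narrow, as for GRM7 in the first set, at 3.27 RPKM in the middle against 3.23 proximally. Only 1 receptor gene, ADRA2A, was lowest in the middle in both sets, where 4.83% of all genes were. Neuron markers were higher in the middle than in the proximal piece in both sets for 6 of 15 and lower for 1.

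Among kainate receptor genes, GRIK4 and GRIK1 stood above every AMPA gene in mean RPKM. GRIK4, a high-affinity subunit that needs a partner subunit to form a channel, had 7.83 and 12.7 RPKM proximally, 10.2 and 16.4 in the middle and 10.3 and 17.7 distally, so that proximal was lowest in both sets. GRIK1, a subunit able to form channels on its own, had 3.77 and 7.40, then 6.55 and 9.66, then 6.15 and 9.82 RPKM. GRIK4 to GRIK1 ratios of 1.56 to 2.07 held over the 6 libraries. GRIK2, the other widely used channel-forming subunit, was rarer, at 0.277 and 0.901, then 0.456 and 1.12, then 1.79 and 2.75 RPKM, and its distal libraries lay above all 4 others. Its distal minus proximal log2 change was 1.05 ± 0.21, with 1.13 and 0.98 in the sets (limma adjusted p = 0.103 with the block and 1 without). GRIK3 stayed below 1 RPKM everywhere, at 0.471 and 0.606 proximally and 0 and 0.0600 distally. NETO1, an auxiliary subunit of kainate receptors, had 0.556 and 1.27, then 1.61 and 2.24, then 3.32 and 3.01 RPKM.

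NMDA receptor genes differed from one another in direction. GRIN1, the obligatory subunit of NMDA receptors, was measured at 3.62 and 5.74 RPKM proximally, 2.69 and 5.30 in the middle and 0.892 and 1.77 distally. Both distal libraries lay below all others. GRIN3A, a subunit that lowers calcium entry, had 1.30 and 3.96, then 2.08 and 5.23, then 4.67 and 9.08 RPKM, and the distal libraries lay above both proximal ones. The log2 changes from proximal to distal were -1.29 ± 0.22 for GRIN1 and 1.16 ± 0.23 for GRIN3A (limma adjusted p = 0.0841 and 0.0965 with the block, 1 for both without). Each of these differences was at least 2-fold on the log2(RPKM + 1) scale in both sets. In that direction and size GRIN3A and HTR1A were the 2 receptor genes that were higher, 5.13% beside 1.16% of all genes tested, and CHRNA1, CHRNA4 and GRIN1 the 3 that were lower, 7.69% beside 1.92%. The ratio of GRIN3A to GRIN1 was 0.360 and 0.690 proximally, 0.775 and 0.988 in the middle and 5.24 and 5.14 distally. Because 2 libraries against 2 cannot reach an exact permutation p below 0.333, such ratios and shares are given as descriptions.

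GRIN2B, a glutamate-binding subunit typical of embryonic neurons, had 0.532 and 5.10, then 0.518 and 5.95, then 0.219 and 1.88 RPKM, and in the proximal and middle pieces the gap between sets was wider than any gap between regions. GRIN2A, its counterpart in mature neurons, reached 0.605 RPKM at most. As a share of the summed NMDA genes, GRIN3A took 23.8% and 25.9% proximally, 39.1% and 30.6% in the middle and 80.8% and 70.1% distally, while the sum itself ran from 5.33 to 17.1 RPKM and differed mainly between sets. The delta receptor gene GRID1 had 1.02 and 2.51 RPKM proximally and 0.447 and 1.09 distally.

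**Figure D3:**
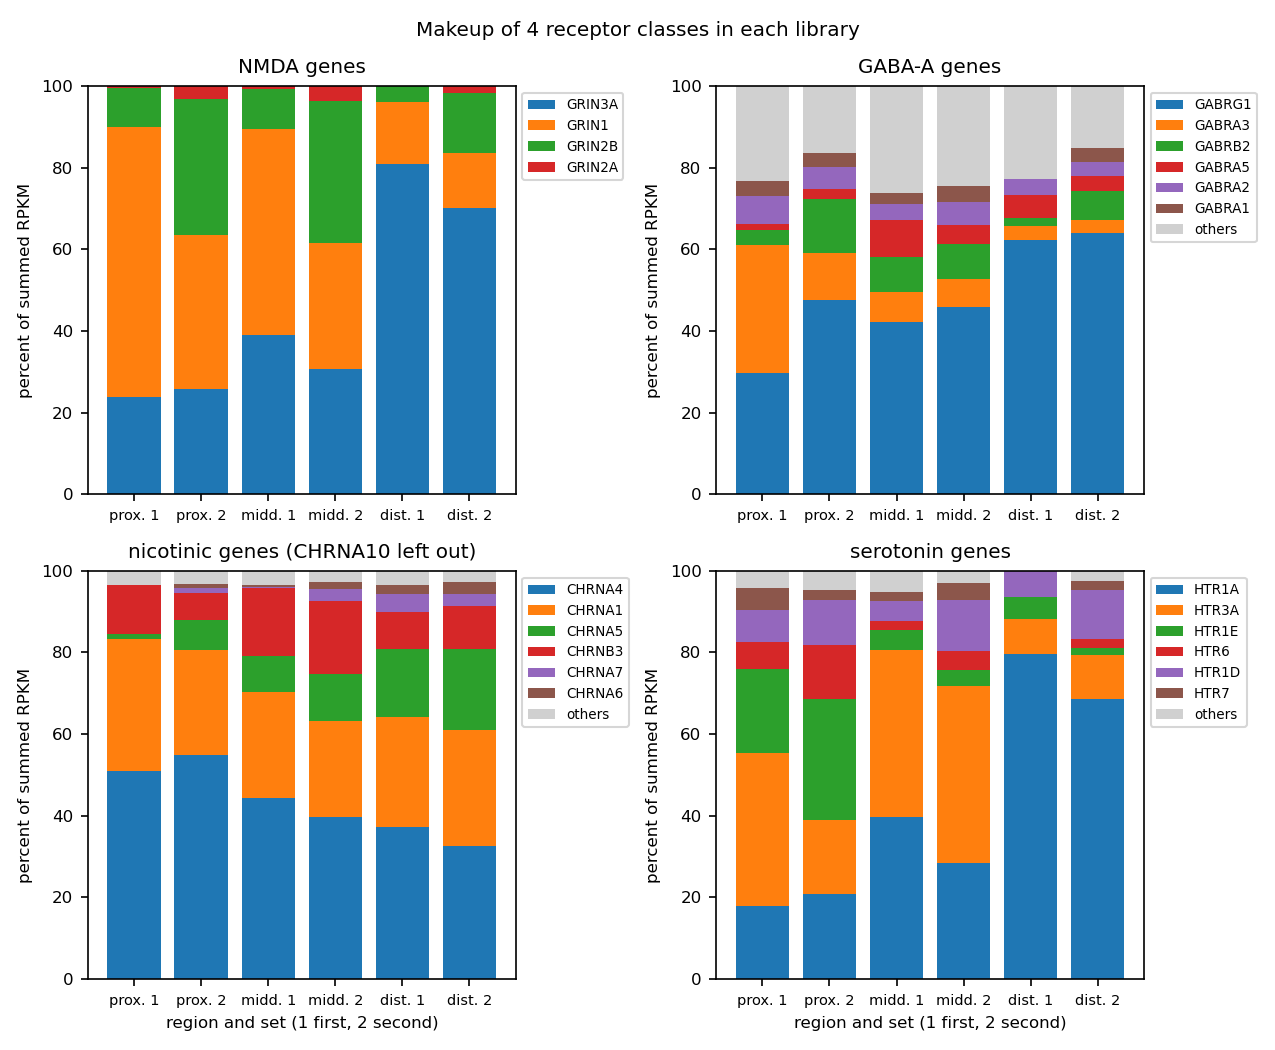
Share of each gene, in percent, in the summed RPKM of its receptor class, for the 6 libraries. In the NMDA class GRIN3A takes 80.8% and 70.1% in the distal libraries against 23.8% and 25.9% in the proximal ones, and in the serotonin class HTR1A takes 79.6% and 68.6% against 17.9% and 20.9%.

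Among the genes kept by the rule, which leaves out CHRNA10, GRM4 had the highest mean level. GRM4 encodes a metabotropic glutamate receptor that inhibits adenylyl cyclase. It had 14.9 and 19.1 RPKM proximally, 19.0 and 31.6 in the middle and 16.5 and 22.2 distally, and the regions overlapped. Its distal minus proximal log2 change was 0.17 ± 0.21. GRM7, of the same inhibitory group, had 3.23 and 5.15, then 3.27 and 8.42, then 2.46 and 5.75 RPKM. GRM3 had 1.17 and 4.89 RPKM proximally, 0.925 and 2.97 in the middle and 0.468 and 1.79 distally, with a change that did not pass the test (-0.82 ± 0.24, limma adjusted p = 0.216 with the block). GRM5 and GRM8 stayed below 1 RPKM in every library.

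GABA-A receptors are chloride channels of alpha, beta and gamma subunits, and 7 of their 13 genes were tested. GABRG1, a gamma subunit, was the highest of them and had 3.24 and 11.6 RPKM proximally, 4.81 and 8.43 in the middle and 11.4 and 18.5 distally. Distal values were the highest within each set, though the second-set proximal library lay just above the first-set distal one. GABRG1 had a distal minus proximal log2 change of 1.09 ± 0.30, with 1.54 and 0.63 in the sets (limma adjusted p = 0.190 with the block), and its share of the summed GABA-A genes was 29.7% and 47.7% proximally, 42.1% and 45.8% in the middle and 62.2% and 63.9% distally.

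Among alpha and beta subunits, GABRA3 had 3.42 and 2.75 RPKM proximally, 0.853 and 1.27 in the middle and 0.639 and 0.979 distally, and its proximal libraries lay above all others. Its distal minus proximal log2 change was -1.18 ± 0.25 (limma adjusted p = 0.111 with the block). GABRA5 had 0.157 and 0.647, then 1.05 and 0.873, then 1.05 and 1.08 RPKM, its proximal libraries being the lowest. GABRA2 and GABRB2 overlapped between all regions. GABBR2, the GABA-B subunit that couples to the G protein, had 1.16 and 3.58, then 1.58 and 4.62, then 0.544 and 1.73 RPKM.

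Glycine receptor transcripts were mostly GLRA4, an alpha subunit, which took between 81.7% and 96.3% of the class. Its RPKM was 31.5 and 22.2 proximally, 13.4 and 15.6 in the middle and 8.25 and 11.0 distally, so the libraries of the 3 regions did not overlap. Its distal minus proximal log2 change of -1.38 ± 0.27 had limma adjusted p = 0.101 with the block and 0.8 without, and among the fits of all 6 libraries it was called only with quantile normalized values (adjusted p = 0.0438 with the block), a setting that called 5 receptor genes, 12.8%, beside 2.05% of all genes. GLRB, the beta subunit that binds the anchoring protein gephyrin, had 1.08 and 3.70, then 2.08 and 2.98, then 1.30 and 1.41 RPKM, and its distal minus proximal change had opposite signs in the sets (0.14 and -0.96). GLRA1, GLRA2 and GLRA3 stayed below the testing limit, with GLRA3 at 1.08 RPKM in the second-set proximal library.

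**Figure D4:**
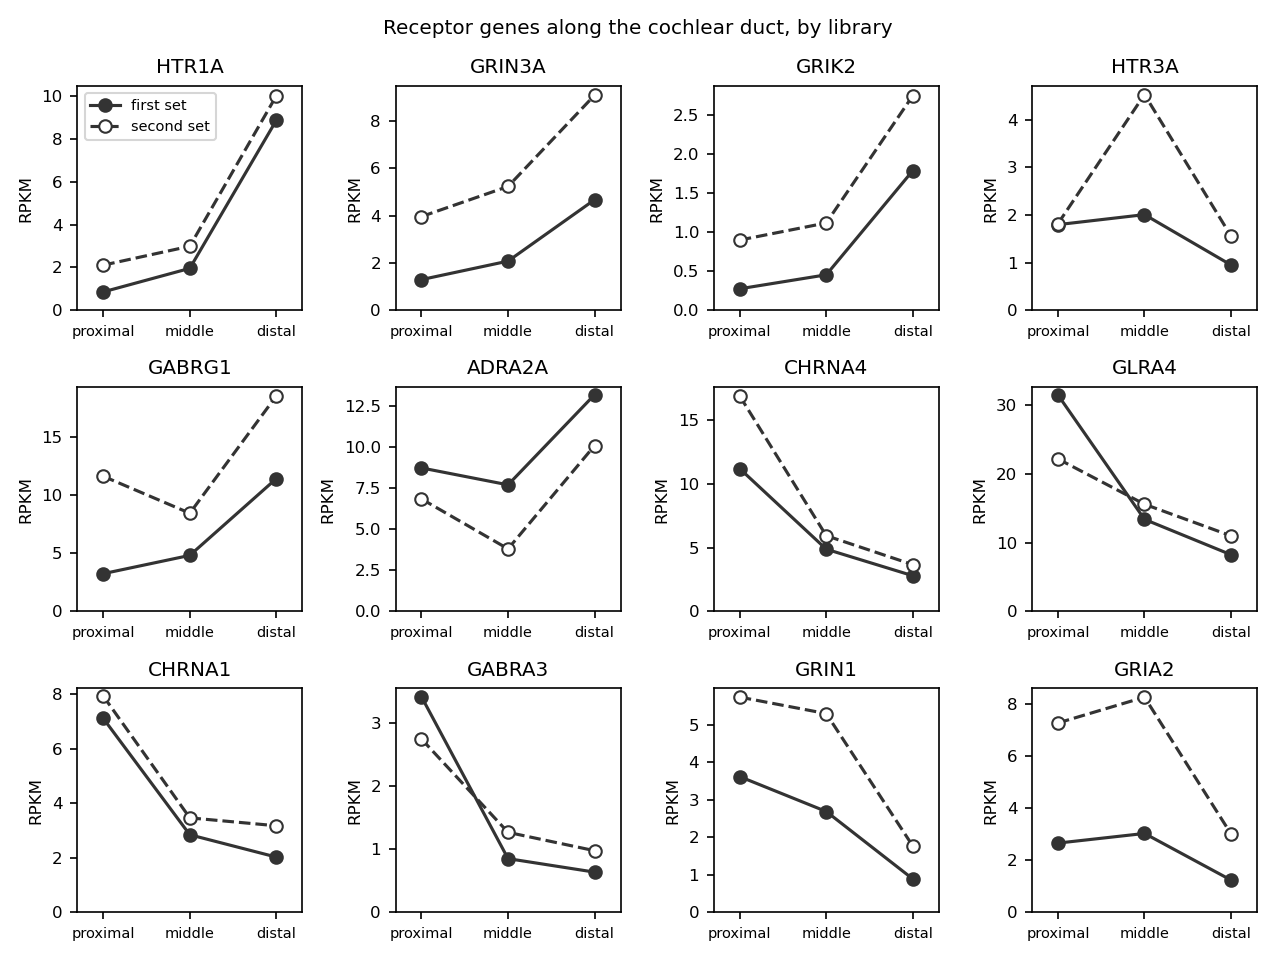
RPKM of single receptor genes by region, each panel starting at 0, with 1 point per library and the points of a set joined by a line. HTR1A is at 8.86 and 10 RPKM in the distal libraries and at most 2.99 elsewhere, and CHRNA4 is at 11.2 and 16.9 in the proximal libraries and at most 5.94 elsewhere.

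Nicotinic receptors are cation channels of neurons, muscle and hair cells, and 4 of the 11 genes were tested. CHRNA4, an alpha subunit of the main neuronal nicotinic receptor of the brain, had 11.2 and 16.9 RPKM proximally, 4.88 and 5.94 in the middle and 2.80 and 3.67 distally. The libraries of the 3 regions did not overlap. Its mean fell from 14.0 ± 4.05 to 3.23 ± 0.614 RPKM (SD, n = 2), a distal minus proximal log2 change of -1.81 ± 0.23, with -1.68 and -1.94 in the sets. Limma gave adjusted p = 0.0486 with the block and 0.731 without. In the blocked model the adjusted p became 0.0758 without the first-set distal library, 0.0514 without the second-set distal library, 0.0632 with a pseudocount of 0.1 and 0.195 without the filter on low values. The middle minus proximal change was -1.21 ± 0.23 (limma adjusted p = 0.414 with the block). In that comparison the median log2 change was 0.11 for neuron, -0.26 for glia, -1.13 for hair cell, -1.07 for red blood cell and 0.68 for prosensory markers. Their part in the result was not tested.

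CHRNA1, the alpha subunit of the muscle receptor, had 7.12 and 7.94 RPKM proximally, 2.85 and 3.47 in the middle and 2.03 and 3.18 distally, with both proximal libraries above the rest. Its distal minus proximal log2 change of -1.26 ± 0.23 had limma adjusted p = 0.0876 with the block. The other muscle subunits in the table, CHRND and CHRNG, stayed at or below 0.0478 RPKM. Of 10 skeletal muscle markers, MYOD1, MYOG, MYH2, ACTN2 and PAX7 stayed under 1 RPKM in all libraries, and the list summed to 126 and 41.2 RPKM proximally, 151 and 64.5 in the middle and 250 and 110 distally. TNNC2 made up most of that sum, at 114 and 32.9, then 141 and 57.5, then 240 and 103 RPKM. Of the 4 muscle markers tested, 2 were higher distally than proximally in both sets and 2 were lower, TNNT3 and DES. The part of muscle cells in the CHRNA1 difference was not tested. CHRNB3, an accessory subunit, had 2.63 and 2.06, then 1.83 and 2.66, then 0.690 and 1.18 RPKM. CHRNA5, another accessory subunit, had 0.234 and 2.21, then 0.991 and 1.73, then 1.24 and 2.25 RPKM. Its share of the nicotinic sum, which leaves out CHRNA10, was 1.07% and 7.19% proximally and 16.5% and 20.0% distally. The efferent receptor subunit gene CHRNA9 was barely detected, at 0.351 and 0.456, then 0.0611 and 0.0326, then 0 and 0.0256 RPKM, whereas CHRNA10, outside the rule, had 70.7 and 29.1, then 9.23 and 14.4, then 6.14 and 8.33.

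Muscarinic receptors are G protein-coupled, and CHRM4 led them with 2.78 and 3.23 RPKM proximally, 1.90 and 2.96 in the middle and 1.22 and 2.32 distally. Both distal libraries lay below both proximal ones, with a log2 change of -0.56 ± 0.23. CHRM3 overlapped between regions, at 0.961 and 2.68, then 0.867 and 2.29, then 0.714 and 2.24 RPKM. CHRM2 peaked at 1.26 RPKM.

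HTR1A, a serotonin receptor that inhibits adenylyl cyclase, had 0.863 and 2.11 RPKM proximally, 1.96 and 2.99 in the middle and 8.86 and 10 distally. Both distal libraries lay above the other 4. The mean rose from 1.49 ± 0.884 to 9.43 ± 0.810 RPKM (SD, n = 2), a distal minus proximal log2 change of 2.11 ± 0.25, with 2.40 and 1.82 in the sets. Limma gave adjusted p = 0.0442 with the block and 0.686 without. In the blocked model the adjusted p became 0.0707 with a pseudocount of 0.1, which ended the call, as did dropping the filter on low values (0.195). The distal minus middle change was 1.60 ± 0.25 (adjusted p = 0.175 with the block).

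HTR1D, like HTR1A, was higher distally than in the proximal and the middle piece in both sets. Its distal minus proximal log2 change was small, at 0.33 ± 0.22 (limma adjusted p = 0.473 with the block). HTR1E and HTR3A went other ways. HTR1E, of the same inhibitory group as HTR1A, had 1.00 and 3.00 RPKM proximally, 0.244 and 0.433 in the middle and 0.616 and 0.255 distally. It reached 1 RPKM in the proximal libraries only. HTR3A, the one serotonin receptor subunit here that is an ion channel, had 1.80 and 1.82, then 2.01 and 4.53, then 0.953 and 1.56 RPKM. Its middle libraries lay above all others and its distal ones below. Summed serotonin receptor genes gave 4.83 and 10.1 RPKM proximally and 11.1 and 14.6 distally, and HTR1A took 79.6% and 68.6% of the distal sum. TPH1, the rate-limiting enzyme of serotonin synthesis, had 4.31 and 7.70, then 12.6 and 13.2, then 19.2 and 17.8 RPKM (distal minus proximal 1.52 ± 0.27, limma adjusted p = 0.0847 with the block). DDC, the next enzyme of that pathway, and SLC6A4, the serotonin transporter gene, stayed under 1 RPKM in all libraries.

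ADRA2A, an inhibitory adrenergic receptor, had 8.74 and 6.85 RPKM proximally, 7.71 and 3.81 in the middle and 13.2 and 10.1 distally. It was lower in the second set in every region, unlike most receptor genes, and its distal libraries lay above all others (distal minus middle 0.95 ± 0.25, limma adjusted p = 0.343 with the block). The other adrenergic genes stayed below 1 RPKM, as did the dopamine receptor genes DRD1, with 0.385 RPKM at most, and DRD2. The genes of noradrenaline and dopamine synthesis TH and DBH were under 1 RPKM in all libraries as well.

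**Figure D5:**
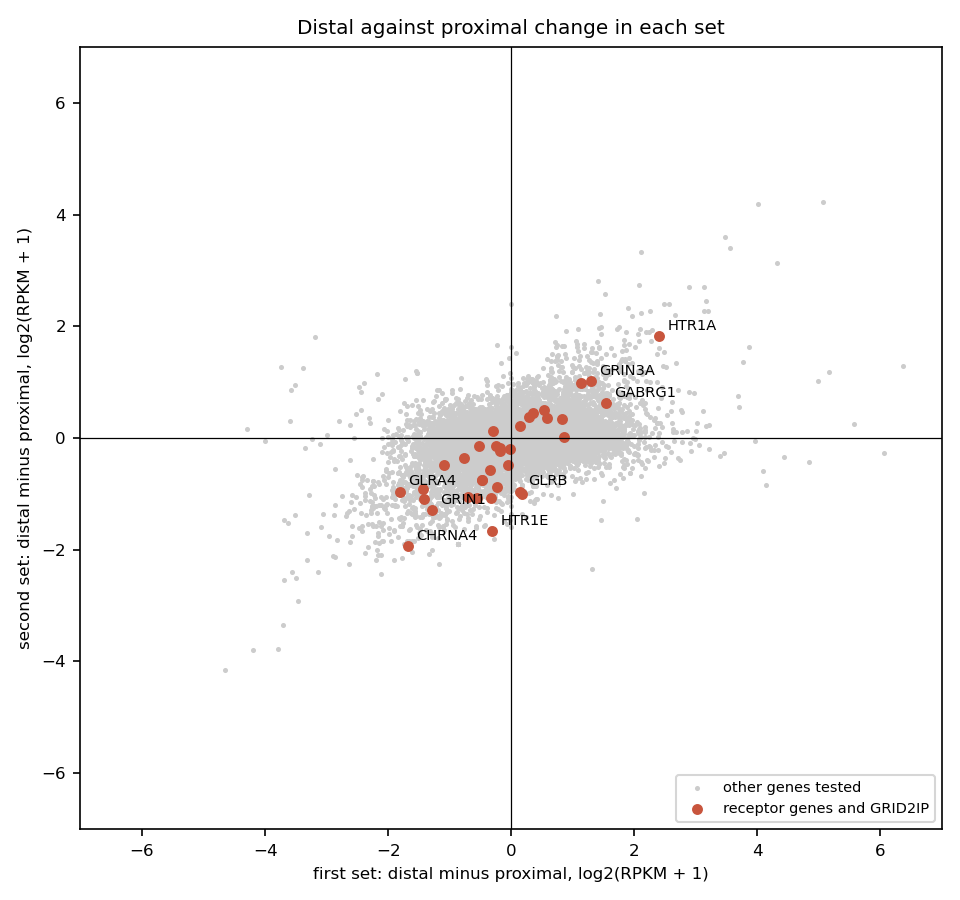
Distal minus proximal difference of log2(RPKM + 1) in the first set (horizontal axis) and in the second set (vertical axis) for the tested receptor genes drawn, GRID2IP included, and for the other genes tested (gray). HTR1A lies at 2.40 and 1.82, CHRNA4 at -1.68 and -1.94, and GLRB lies on opposite sides of 0 in the sets.

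The libraries of the 2 duct ends did not overlap for 16 receptor genes. Of these, 6 of 39, 15.4%, were higher distally, beside 13.1% of all genes tested (among them ADRA2A, GABRA5, GRIK2, GRIN3A and HTR1A), and 10, 25.6%, were lower, beside 10.3% (among them CHRM4, CHRNA1, CHRNA4, CHRNB3, GABRA3, GLRA4, GRIN1, HTR1E and HTR3A). Without HTR1E the lower ones were 9 of 38, 23.7%. Within both sets, 9 genes, 23.1%, stepped down from proximal through middle to distal, where 5.61% of all genes did, and 5, 12.8%, stepped up, where 8.55% did. Those that stepped up included GRIK2, GRIK4, GRIN3A and HTR1A.

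The middle piece was compared with each end in the same model, which shares libraries with the comparison of the ends. From proximal to middle, 0 receptor genes and 0 of all genes were called in limma, with or without the block, and 4 receptor genes, 10.3%, had an unadjusted p under 0.05 without it beside a background of 0.884% (CHRNA1, CHRNA4, GABRA3 and HTR1E). All 4 were lower in the middle, beside a background of 0.621% in that direction. Their log2 changes were -1.04 ± 0.23, -1.21 ± 0.23, -0.99 ± 0.25 and -1.08 ± 0.35 in that order (SE of the blocked model). In the fit without the block, which gave these p-values, the SE were 0.43, 0.44, 0.4 and 0.45. Without HTR1E the genes were 3 of 38, 7.89%, and still included GABRA3, which also needed its proximal libraries to be tested. With the block, GLRA4 joined the 4 (-0.83 ± 0.27), making 12.8% beside 3.85% (10.5% without HTR1E). Non-overlapping libraries were found for 5 receptor genes lower in the middle, 12.8% beside 4.82% (4 of 38, 10.5%, without HTR1E), and for 2 higher, GABRA5 and HTR3A, 5.13% beside 5.76%. Hair cell markers differed in the same comparison, with 10 of 13 tested lower in the middle in both sets and 1 higher, as did red blood cell markers, with 5 of 5 lower. Among the hair cell markers, SLC17A8 reached 1 RPKM in the proximal libraries only, and GFI1 also needed those libraries to be tested. The limit thus partly sets their being lower, here and in the hair cell medians given above. The part of hair cells and red blood cells in the result was not tested.

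From middle to distal, 0 receptor genes and 0 of all genes were called in limma with or without the block. At an unadjusted p under 0.05 there was 1 receptor gene without the block, HTR1A, 2.56% beside 1.67%, and 16 with it, 41% beside 7.64%. In both sets 25 receptor genes, 64.1%, were lower in the distal than in the middle piece, where 30.6% of all genes were, and 9, 23.1%, were higher, where 39.9% were. The median log2 change was -0.32 for the receptor genes and 0.03 for all genes tested. All 15 neuron markers were lower distally than in the middle in both sets, with a median of -1.03, and their part in the result was not tested.

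Genes that act with the receptors were counted over 4 lists, and none of their genes was called in any of the 3 comparisons, with or without the block. Over all genes tested, 24.7% were lower distally than proximally in both sets and 33.3% were higher. Of 23 tested partners of glutamate receptors, 11 were lower in this way and 6 were higher (median -0.03). GRID2IP, already counted with the receptor genes, is also in this list and among the 11. The secreted pentraxin NPTX2, which clusters AMPA receptors at synapses, had 7.70 and 8.27 RPKM proximally, 2.76 and 2.49 in the middle and 2.10 and 1.99 distally, and NPTX1 had 5.32 and 3.23, then 1.94 and 3.08, then 0.298 and 0.666. CACNG3, an AMPA receptor auxiliary subunit, had 17.1 and 7.86, then 7.88 and 6.62, then 1.99 and 3.37 RPKM. Their distal minus proximal log2 changes were -1.56 ± 0.22, -1.81 ± 0.32 and -1.81 ± 0.39 in that order (limma adjusted p = 0.0603, 0.0847 and 0.116 with the block).

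Of 15 partners of GABA and glycine receptors, 6 were lower distally in both sets and 3 higher (median -0.07). The GABA-B auxiliary subunit KCTD8 had 7.72 and 5.04 RPKM proximally and 2.25 and 2.52 distally. Of 8 tested partners of acetylcholine receptors, 6 were lower and 1 higher (median -0.44). LYPD1, a membrane-bound modulator of nicotinic receptors, had 57.5 and 57.0, then 48.7 and 46.3, then 29.6 and 27.9 RPKM, with a distal minus proximal log2 change of -0.97 ± 0.19 (limma adjusted p = 0.0939 with the block). RAPSN, which clusters the muscle receptor, had 1.51 and 0.711 proximally and 0.654 and 0.241 distally.

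Of 21 tested genes of transmitter synthesis, breakdown and transport, 9 were higher distally in both sets and 5 lower (median 0.19). CHAT, which makes acetylcholine, had 0.0329 and 0.121, then 0.548 and 0.904, then 3.85 and 1.65 RPKM, and GLDC, which breaks down glycine, 4.88 and 17.3, then 9.74 and 16.2, then 29.4 and 35.9. Their log2 changes were 1.74 ± 0.33 and 1.69 ± 0.35 (limma adjusted p = 0.0939 and 0.109 with the block). CHAT reached 1 RPKM in the distal libraries only, so its being higher there is partly set by the testing limit. The vesicular glutamate transporter gene SLC17A6, used by ganglion neurons, had 3.83 and 8.80, then 3.95 and 8.11, then 1.30 and 2.35 RPKM. SLC17A8, the transporter gene used by hair cells in mammals, had 1.49 and 1.23 proximally, 0.0756 and 0.0807 in the middle and 0.191 and 0.359 distally. It passed the testing limit through the proximal libraries alone, so its being lower elsewhere is partly set by that limit. The inhibitory transmitter genes GAD2, SLC32A1 and SLC6A5 stayed under 1 RPKM in all libraries.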

How the data were processed

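RNA from 6 pools of cochlear duct pieces was measured as RPKM per gene, as the authors deposited it. The tools were TopHat 1.4.0 and Partek 6.6, per the submitters' processing notes. Genome build, annotation and use of strand were not given in the sources used here. No positions are printed, and overlapping or near-identical genes cannot be told apart. Per the labels' protocols, polyadenylated RNA was selected, and the libraries were made with alternative Illumina kits whose assignment is not given. Column names tie each library to a region and a set, and 0 columns belonged to other series. The row of alignment totals was kept out of all tests.

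The deposited RPKM were put on a log2(RPKM + 1) scale, which understates changes of low genes. The 12559 genes with 1 RPKM in at least 2 libraries entered a limma 3.58.1 fit under R 4.3.3 (region as factor, moderated with a trend, two-sided, Benjamini-Hochberg over all genes, threshold 0.05), after a test on simulated data. That test used less noise than the pooled spread of the data and large planted changes. It checked the code and does not show how well changes are found in these data. Python 3.11.15 and pandas 2.3.3 made the counts. The fit without a block was the main one, with 3 residual degrees of freedom. With the library set as a replicate block there were 2. Set differences correlated across genes at 0.659, 0.655 and 0.885 between pairs of regions, so the libraries of a set shared a difference from the other set. This does not show that the pieces of a set came from the same ducts. Because of the shared difference, blocked values stand beside the results.

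Named genes were the 8 highest receptor genes and the highest of each class. Genes past the threshold in the main fit or in a blocked fit of all 6 libraries were also named. Fits that left out a library were not searched for this. Genes with non-overlapping libraries and a log2 change of at least 0.5 were named too (up to 8 per direction between the duct ends and 5 elsewhere). Some further receptor genes are given to complete their class and were added after their values were seen. The receptor genes and all lists were chosen with earlier results of these data known. Markers covered neurons, glia and neural crest, hair cells, prosensory and supporting cells, red blood cells, leukocytes, cartilage, skeletal muscle, and endothelium. RefSeq gene names (GRCg7b) held all 71 symbols. Values of some genes are not reported here and are left out of the figures, although counts include them.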

Additional observations from a re-analysis of the deposited data

How the results depend on the processing

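The count of genes called between the duct ends was 0 without a block and 66 with the replicate block, and with the block it was 36 at a pseudocount of 0.1, 257 after quantile normalization and 0 without the filter on low values. The 257 included the receptor genes CHRNA1, CHRNA4, GLRA4, GRIN1 and HTR1A (adjusted p = 0.0492, 0.0191, 0.0438, 0.0476 and 0.0190). Leaving out each library without the block gave 0 to 3. Between proximal and middle, 3 genes were called after quantile normalization with the block. For any region difference the count was 0 without a block, 9 with it, 65 after quantile normalization with it (CHRNA4 and HTR1A among them), and 0 to 1 when a library was left out. With RPKM as deposited, the block changed no receptor call other than HTR1A and CHRNA4 between the ends. Leaving out a library with the block kept in, an alternative chosen after seeing the data, left 1 residual degree of freedom and gave 118 to 6994 genes between the ends, 19 to 5595 between proximal and middle, 16 to 1231 between middle and distal and 158 to 6581 for any region difference. The counts of 6994, 5595 and 6581 came without the second-set proximal library. The cause was not tested, and calls under these fits carry little weight. None of the 651 alternative values of the 31 named changes in receptor genes had the opposite sign. These changes had been chosen for non-overlapping libraries and the same sign in both sets. Their signs could therefore hardly reverse, and the count does not measure how stable they are. Of these values, 458 planned and 137 added ones kept their side of the threshold, and 7 planned and 49 added ones moved past it. The main fit without the block called 0 receptor genes, so values that kept their side were ones that stayed uncalled. They do not show that the calls of HTR1A and CHRNA4 with the block are stable. The search for promoter motifs was not run. Precision is limited by 2 libraries per region and by the depth of the first set.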

Other observations

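Several receptor genes lie beside another one in the RefSeq gene order of assembly GRCg7b, in 11 neighbouring pairs that hold 19 genes. In the run of GABRA4, GABRA2 and GABRG1 the distal minus proximal log2 changes were -0.12, -0.11 and 1.09. CHRNA6 and CHRNB3 had 0.12 and -0.80, and GLRB and GRIA2 had -0.41 and -0.88. These are values for neighbours, and no test was made of them. GABRA4 and CHRNA6 fell below the testing limit, with means of 0.127 and 0.188 RPKM, and the log2(RPKM + 1) scale understates changes at such levels.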
